A study of Homo sapiens with 48 samples.

Results

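The genes of the cytoplasmic translation initiation factors (eIF1 to eIF6) and elongation factors (eEF1 and eEF2) were followed through depletion of UPF1 in human cells. Members were taken by symbol: names beginning with EIF1 to EIF6 or with EEF1 or EEF2, leaving out pseudogene endings, EEF1AKMT and EIF4EBP genes, names ending in -AS1, and EIF4A2, EIF4A3 and EIF2AK3. Of 58870 genes in the table, 212 names matched and 63 remained as candidates. A mean of at least 10 counts per library kept 60 of them, and the 3 below it were EEF1E1-BLOC1S5, EIF1AY and EIF4E1B, with means of 0.533, 0.167 and 0.208. All 60 members also passed the filter on low counts and were tested. The rule kept 57 genes with a role in translation by name, among them regulators such as the eIF2 kinases, and 3 others: the methyltransferase gene EEF1AKNMT and the divergent transcripts EIF2AK3-DT and EIF3J-DT.

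RNA came from Flp-In 293 T-REx cells, an embryonic kidney line with a recombination site for inserting a transgene, sequenced after removal of ribosomal RNA. Of 8 stable lines, CLIP made only the CLIP protein tag, WT made the tag joined to wild-type UPF1, and 6 made it joined to a UPF1 mutant: LECY, F192E, E797R, I757R, FE-ER or IR-ER. The labels do not spell out LECY, FE-ER and IR-ER, which are used as names. Cells were harvested 72 h after transfection with 40 nM siRNA, either non-targeting (siNT) or against endogenous UPF1 (siUPF1). Each of the 16 combinations had 3 biological replicates, which gives 48 libraries. All 8 lines still carried the endogenous UPF1 gene, whether a line was 1 clone or a pool was not given in the sources used here, and transgene and endogenous UPF1 reads were counted together.

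Translation begins when eIF1, eIF1A, eIF3, eIF5 and the eIF2 complex carrying initiator tRNA assemble on the small ribosomal subunit, and the eIF4 factors bring that subunit to the capped mRNA. The subunit scans for a start codon, and eIF5 stimulates GTP hydrolysis by eIF2 there. eIF2B then reloads eIF2 with GTP, a step that the eIF2 kinases block under stress. In elongation, eEF1A delivers aminoacyl-tRNA, eEF1B subunits recharge eEF1A, and eEF2 moves the ribosome along. UPF1 is the helicase of nonsense-mediated mRNA decay (NMD), a pathway that depends on translation, because an mRNA is marked for decay when a ribosome terminates in an unusual place, for example after a short reading frame upstream of the main start codon.

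EIF5 gave the largest rise of any member with UPF1 depleted in the CLIP line, and its annotated leader holds upstream start codons, so these are shown first. In the principal EIF5 transcript of GENCODE 29 (ENST00000216554.7) the leader before the coding start is 676 bases long and holds 6 ATG codons that open a reading frame with a stop. The search was for ATG on the transcript strand only. Each is given with 6 bases on either side, 5′ to 3′, with the ATG in capitals and the hg38 position of the ATG on the plus strand. They lie in the 5′ untranslated region.
EIF5 leader ATG at chr14:103334105-103334107: ggaaagATGcgattg
EIF5 leader ATG at chr14:103334131-103334133: gaaccaATGacgagc
EIF5 leader ATG at chr14:103334163-103334165: cagccaATGggcagt
EIF5 leader ATG at chr14:103334576-103334578: gggtttATGtcttta
EIF5 leader ATG at chr14:103335739-103335741: tttttcATGtcagag
EIF5 leader ATG at chr14:103335771-103335773: tcgtttATGtcatcc
The ATGs at 103334576 and 103335739 open frames that run past the coding start to the same stop, and the other 4 frames close inside the leader after 5 to 26 codons. RefSeq (GRCh38.p14) lists EIF5 transcript starts at 103334237 and 103334888, which lie after 3 and 4 of these ATGs, so transcripts from those starts do not hold all 6.

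A second sequence feature is common in this family. Messages of elongation factors and of several eIF3 subunits are known to begin with a run of pyrimidines at the very 5′ end (5′ TOP), which couples their translation to mTOR and LARP1. From RefSeq (GRCh38.p14) the 12 bases before and the first 18 bases of the annotated transcript were read, and 48 of the 60 members had an entry. The 6 matched members of a 9-gene list of known 5′ TOP factor genes are shown, with the longest run of C or T at or near the start in capitals.
EEF1A1, chr6:73521015-73521044, minus strand: gccgtgaacgTTCTTTTTCgcaacgggttt
EEF1B2, chr2:206159883-206159912, plus strand: gtctcttcgggTCCTTTTTCCTCTCTTCag
EEF2, chr19:3985446-3985475, minus strand: gacgtcagcgTTCTCTTCCgccgtcgtcgc
EIF3F, chr11:7987325-7987354, plus strand: cgcttccgCCTCCTTCTTTCTCgacaagat
EIF4B, chr12:53006444-53006473, plus strand: cctcatccgggTCTTTTgcgttctctttcc
EEF1G, chr11:62573874-62573903, minus strand: cccgggcggcttaCTTTgcggcagcgccga
A gene with several listed starts was counted by its longest run, and the other EEF1B2 start, whose window is chr2:206159597-206159626, has a run of 4. A run of at least 6 C or T was counted if it touched the bases just before or after the start, so it need not cover the first base. The runs of EIF5 and EIF2B5, for example, end before the first base, and that of EIF4H begins after it. Such a run was found in 5 of these 6, EEF1G being the exception. It was present in 21 of the 48 matched members (43.8%) and in 23.9% of the 27305 genes of the RefSeq table.

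Libraries held 6017007 to 14551848 counts (median 8670914), of which the 60 members took 1.96% to 2.33%. UPF1 (chromosome 19, 18831938 to 18868236, hg38) read 111, 97.2 and 109 CPM (the share of a library's counts scaled to a fixed total) in CLIP cells with siNT and 20.4, 21.3 and 19.5 CPM with siUPF1, leaving 19.3% of its RNA. UPF1 thus fell by 2.37 in log2 units (SE 0.13, adjusted p = 2.1e-17), and a two-sided exact permutation test gave p = 0.1, the smallest that 3 against 3 allows. In the 7 lines with a UPF1 transgene, UPF1 read 3050.1 to 5116 CPM with either siRNA. The markers of 293 cells INA, NEFL, NEFM, PAX2 and LIN28B had mean levels of 49.3, 273, 1.15, 5.17 and 111 CPM. They summed to 339 to 525 CPM with siNT and 339.8 to 581 CPM with siUPF1, mostly from NEFL and LIN28B. NEFM lay below the fibroblast markers COL1A1, COL3A1 and PDGFRA (2.31, 2.92 and 3.16 CPM). Blood and endothelial markers summed to at most 0.503 CPM, and fibroblast markers to at most 13.1 CPM, with COL1A2 nearly absent. The 13 mitochondrially encoded mRNAs, read as a sign of RNA quality, summed to 19796 to 35955 CPM with siNT and 21942 to 44981 CPM with siUPF1, with at most 3 of 13 called in any line, and their part in the results was not tested.

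In CLIP cells, which had no UPF1 other than their own, UPF1 depletion raised 6 and lowered 13 of the 60 members at an adjusted p under 0.05 (edgeR's quasi-likelihood test, adjusted over all 16698 genes tested). The risers were EIF5, EEF2K, EIF2B2, EIF6, EIF2D and EIF2B5. The fallers were EEF1A2, EIF3A, EEF1G, EIF3E, EIF2AK2, EIF3K, EIF3M, EIF2S3, EEF1D, EIF3H, EIF2B3, EIF1AX and EEF1A1. Together these were 31.7% of the members, beside 33.7% of all genes. Risers made up 10% of the members, beside 18.1% of all genes, and fallers 21.7%, beside 15.6%. The overall share was thus close to that of any gene. The median log2 change of the members was -0.10 and that of all genes -0.03. A change of at least 1.5-fold was seen in 4 members, EIF5, EEF1A2, EEF2K and EIF2B2, and in 26.4% of all genes. That measure carries no test. Between WT and CLIP under siNT, 4.52% of all genes exceeded it although only 0.0120% were called. Within a line, same-numbered replicates deviated together. With the replicate number as a block shared by all lines, 9 members rose and 22 fell (51.7%, beside 45.7% of all genes), with all 19 of the former calls among them.

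**Figure D1:**
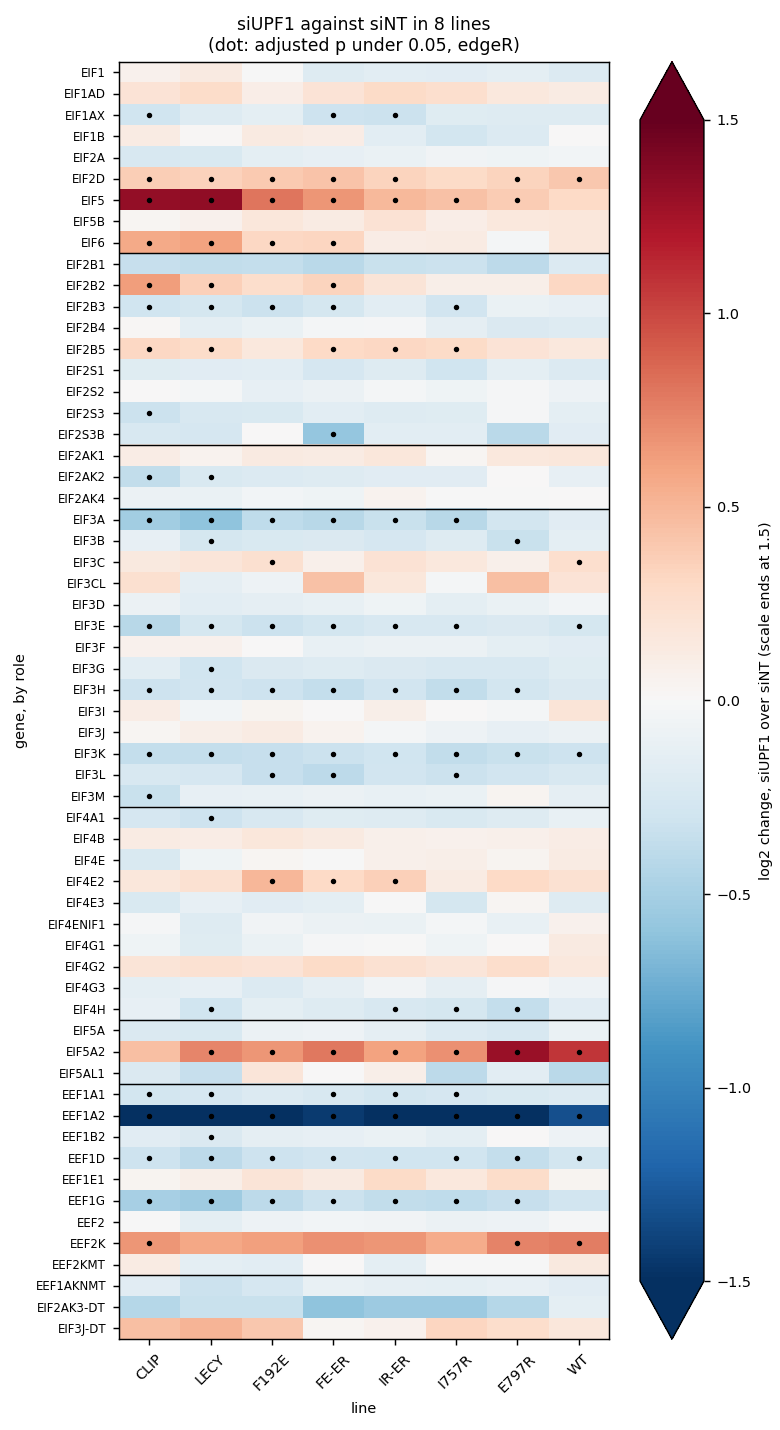
The 60 members (rows, grouped by role) and 8 lines (columns), coloured by the log2 change of siUPF1 over siNT (red higher, blue lower; colours end at 1.5 either way), with a dot where the adjusted p was under 0.05. EEF1A2 is dark blue in all 8 columns, from -1.32 to -2.12, while EIF5 is darkest red in CLIP and LECY (1.32 and 1.33) and palest in WT (0.30).

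The next group was named for start site selection and the small-subunit complex, but EIF6, a large-subunit factor, and EIF1AD were also placed in it. Of its 9 genes, 3 rose in CLIP cells (EIF5, EIF6, EIF2D) and 1 fell (EIF1AX), with a median of 0.13. Of all genes, 18.1% rose and 15.6% fell there. EIF5 (chromosome 14, 103333544 to 103345025) encodes the GTPase activator of eIF2. It read 246, 267 and 245 CPM with siNT and 552, 714 and 622 CPM with siUPF1, so the groups were far apart. The log2 change was 1.32 (SE 0.11, adjusted p = 7.94e-12). EIF6 (chromosome 20, 35278911 to 35284985) encodes a factor that keeps the large subunit from joining the small one. It read 63.8, 56.9 and 62.6 CPM with siNT and 90.5, 90.0 and 91.0 CPM with siUPF1, without overlap, a change of 0.57 (SE 0.10, adjusted p = 3.37e-05). EIF2D, which can deliver tRNA to the ribosome without GTP, rose by 0.37 (SE 0.11, adjusted p = 0.00679). EIF1AX, the X-linked gene of eIF1A, fell by 0.29 (SE 0.10, adjusted p = 0.0241), with overlapping groups, a call lost without any 1 of CLIP siNT replicates 2 and 3 or siUPF1 replicates 1 and 3 (adjusted p between 0.0751 and 0.182). The other 5 did not pass: EIF1AD (0.20), EIF1B (0.13), EIF1 (0.07), EIF5B (0.03) and EIF2A (-0.24, adjusted p = 0.101 and 0.034 with the block). Of the leader ATGs in the principal GENCODE transcripts, EIF5 and EIF6 had 6 each and EIF2D had 1. The other risers, EIF2B2, EIF2B5 and EEF2K, had none. The RefSeq starts of EIF6 lie after all 6 of its ATGs, so transcripts from those starts hold none of them.

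The 9 genes of eIF2 and its exchange factor eIF2B did not move as a unit. In CLIP cells 2 subunits of eIF2B rose, 1 subunit of eIF2B and 1 of eIF2 fell, and 5 genes did not pass, with a median of -0.18. The shares of all genes were 18.1% for rises and 15.6% for falls. EIF2B2 (chromosome 14, 75002911 to 75012366), the beta subunit, read 18.2, 20.5 and 16.8 CPM with siNT and 31.0, 28.5 and 26.3 CPM with siUPF1, without overlap. Its change was 0.63 (SE 0.11, adjusted p = 2.58e-05). EIF2B5, the catalytic epsilon subunit, rose by 0.31 (SE 0.09, adjusted p = 0.0108, and 0.0584 without CLIP siUPF1 replicate 1). EIF2B3 (chromosome 1, 44850522 to 44986722), the gamma subunit, went the other way. It read 34.6, 40.3 and 43 CPM with siNT and 31.0, 33.9 and 31.4 CPM with siUPF1, without overlap but with a small gap, a change of -0.29 (SE 0.09, adjusted p = 0.0138). That call was lost without CLIP siNT replicate 3 or siUPF1 replicate 3 (adjusted p between 0.056 and 0.107).

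EIF2S3 (chromosome X, 24054716 to 24077971) encodes the gamma subunit of eIF2, which holds GTP and tRNA. It read 556, 542 and 573 CPM with siNT and 433, 455 and 447 CPM with siUPF1, with every treated library below every control, and fell by 0.32 on the log2 scale (SE 0.10, adjusted p = 0.0125). Its near-identical copy EIF2S3B (-0.24) may share reads with it. EIF2B1 had -0.35 in CLIP (adjusted p = 0.0838, and 0.00172 with the block) and lay between -0.40 and -0.21 over all 8 lines, passing in none without the block and in 7 with it. EIF2B4, EIF2S1 and EIF2S2 did not pass in CLIP, although EIF2S1 (-0.18) did with the block (adjusted p = 0.0468). Of the 3 eIF2 kinase genes, EIF2AK2, which encodes the double-stranded RNA sensor PKR, fell. It read 211, 213 and 205 CPM with siNT and 151, 181 and 157 CPM with siUPF1, without overlap, a change of -0.37 (SE 0.08, adjusted p = 0.000702). EIF2AK1 (0.11) and EIF2AK4 (-0.08), the heme-regulated and amino acid-regulated kinases, did not pass.

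eIF3, the scaffold that binds the small subunit and the eIF4 factors, had 14 genes among the members. In CLIP cells 5 of them fell and none rose, while 15.6% of all genes fell and 18.1% rose. Their median was -0.14, with a range from -0.52 to 0.25. EIF3A (chromosome 10, 119033670 to 119080823), the largest subunit, read 1524, 1452 and 1346 CPM with siNT and 1089, 1012 and 910.2 CPM with siUPF1. Every library with siUPF1 was lower, and the change was -0.52 (SE 0.11, adjusted p = 0.000379). EIF3E, a subunit also called INT6, read 202, 212 and 196 CPM with siNT and 144, 172 and 140.1 CPM with siUPF1, again without overlap. It fell by 0.42 (SE 0.09, adjusted p = 0.000181). EIF3K (-0.36), EIF3M (-0.34) and EIF3H (-0.31) fell as well, with adjusted p-values of 0.00319, 0.0299 and 0.00388. The EIF3M call was lost without any 1 of 4 libraries, CLIP siNT replicates 2 and 3 and siUPF1 replicates 1 and 3 (adjusted p between 0.0761 and 0.187), and the EIF3H call without CLIP siUPF1 replicate 1 (adjusted p = 0.0511).

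The remaining 9 eIF3 genes did not pass in CLIP: EIF3L (-0.24, adjusted p = 0.00394 with the block), EIF3G (-0.16), EIF3B (-0.12), EIF3D (-0.08), EIF3J (0.03), EIF3F (0.06), EIF3I (0.11), EIF3C (0.15) and EIF3CL (0.25). EIF3C and EIF3CL are near-identical genes on chromosome 16, so how their reads were divided is uncertain. EIF3L was between -0.39 and -0.24 in every line.

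**Figure D2:**
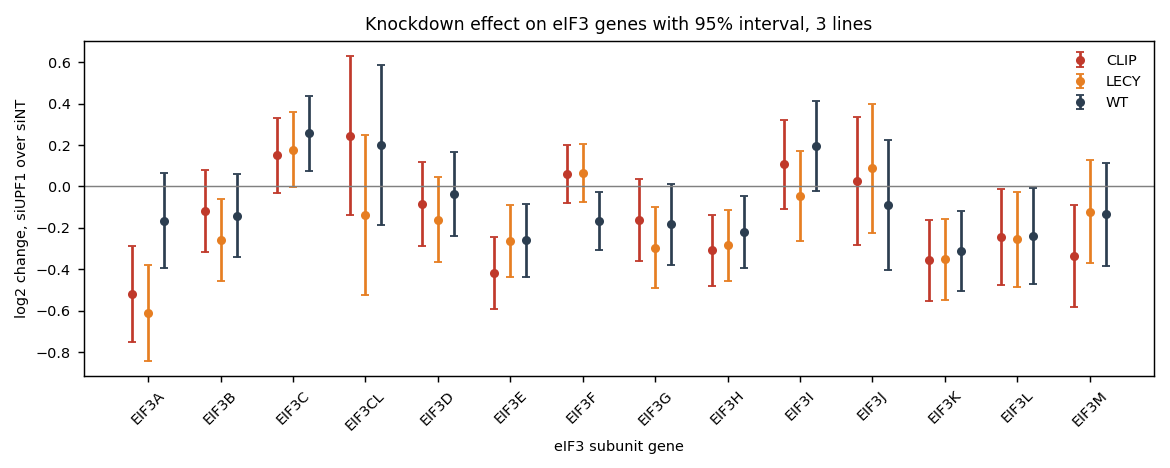
Log2 change of siUPF1 over siNT (y axis) for the 14 eIF3 genes (x axis) in the CLIP, LECY and WT lines, with 95% intervals. EIF3A was at -0.52 in CLIP, -0.61 in LECY and -0.17 in WT, and EIF3K at -0.36, -0.35 and -0.31. The EIF3A effects in CLIP and LECY differed from WT only with the block (edgeR adjusted p = 0.278 and 0.141 without it).

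None of the 10 eIF4 genes passed in CLIP cells, beside 33.7% of all genes, and their changes ran from -0.25 (EIF4A1) to 0.20 (EIF4G2). With the block, EIF4A1 (adjusted p = 0.00132), EIF4E (-0.23, adjusted p = 0.0119) and EIF4G3 (-0.14, adjusted p = 0.035) fell and EIF4G2 rose (adjusted p = 0.0224). EIF4E binds the cap, EIF4A1 is the helicase that unwinds the leader, and EIF4G1 and EIF4G3 are the scaffolds joining them. EIF4G1, EIF4B, EIF4E3 and the eIF4E transporter EIF4ENIF1 passed in none of the 8 lines, although with the block EIF4ENIF1 fell in LECY (-0.19, adjusted p = 0.0309). EIF4H, a cofactor of the helicase, fell in I757R, IR-ER, E797R and LECY (-0.25 to -0.36), and EIF4E2, a cap-binding protein linked to repression, rose in F192E, FE-ER and IR-ER (0.30 to 0.50). EIF4A1 fell in LECY (-0.31). The EIF4A1 call was lost without any 1 of LECY siNT replicates 1 and 2 and siUPF1 replicates 1 and 3 (adjusted p between 0.0578 and 0.13). Of the EIF4E2 calls, FE-ER was lost without siNT replicates 1 or 3 or siUPF1 replicates 2 or 3 (between 0.104 and 0.232) and with DESeq2 (adjusted p = 0.0502), and IR-ER without siNT replicates 1 or 3 or siUPF1 replicates 1 or 2 (between 0.0709 and 0.141). The EIF4H calls in I757R and IR-ER were lost without siNT replicate 2 or siUPF1 replicate 3 of their line (between 0.0725 and 0.109). With the block EIF4A1 fell in 7 of the 8 lines and EIF4G2 rose in 7.

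Of the eIF5A genes, whose product carries hypusine and helps ribosomes over difficult peptide bonds, EIF5A was between -0.24 and -0.08 and EIF5AL1, its near-identical copy, between -0.40 and 0.18, passing in no line. With the block EIF5A fell in CLIP (adjusted p = 0.0425), E797R (0.0481) and LECY (0.045). EIF5A2 (chromosome 3, 170888415 to 170908693) is the low-level paralog of EIF5A. In CLIP cells it read 7.69, 7.0 and 5.33 CPM with siNT and 7.92, 10.4 and 8.84 CPM with siUPF1, a change of 0.45 that did not pass (adjusted p = 0.0819, and 0.0234 with the block). In WT cells it read 6.07, 7.74 and 8.10 CPM with siNT and 14.2, 19.4 and 13.1 CPM with siUPF1, and rose by 1.08 (SE 0.20, adjusted p = 0.00017). It rose in the other 6 lines too, by 0.60 (IR-ER) to 1.30 (E797R), and its smallest change was in CLIP. Leaving out 1 library ended the call in 5 of its 7 lines. The IR-ER call was lost without any 1 of IR-ER siNT replicates 1, 2 and 3 and siUPF1 replicates 1 and 2 (adjusted p between 0.0598 and 0.188).

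In the elongation group, 4 of 9 genes fell in CLIP cells and 1 rose, with a median of -0.17, while 15.6% of all genes fell and 18.1% rose. EEF1A1 (chromosome 6, 73515750 to 73523797), the main gene of eEF1A and, with EEF2, the most abundant member per length (662 and 751 CPM per kilobase of exon in CLIP siNT), read 3744, 3817 and 4245 CPM with siNT and 3151, 3301 and 3331 CPM with siUPF1. The groups did not overlap and the change was -0.27 (SE 0.08, adjusted p = 0.0118), a call lost without CLIP siNT replicate 3 (adjusted p = 0.0877). Pseudogenes of EEF1A1 held 3.69% of the reads of the gene and its pseudogenes together, so part of its reads may be divided. EEF1A2 (chromosome 20, 63488012 to 63499322), the paralog known from neurons and muscle, had by far the larger change. It read 36.2, 28.5 and 40.0 CPM with siNT and 16.2, 10.5 and 10.5 CPM with siUPF1, without overlap, and fell by 1.5 (SE 0.26, adjusted p = 2.31e-05).

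The exchange factor genes fell more mildly, EEF1G by 0.50 (SE 0.11, adjusted p = 0.000681) and EEF1D by 0.31 (SE 0.09, adjusted p = 0.00594). EEF1B2, which like EEF1D encodes a nucleotide exchange subunit, had -0.17 (adjusted p = 0.0629, and 0.0222 with the block). EEF1E1, a scaffold protein of the tRNA synthetase complex despite its name, had 0.04. EEF2 (chromosome 19, 3976056 to 3985469) read 3265, 2709 and 3104 CPM with siNT and 3396, 2757 and 2908 CPM with siUPF1. Its groups overlapped, and the change of -0.00 had a 95% interval from -0.25 to 0.25. EEF2K (chromosome 16, 22206282 to 22288732), the kinase that inhibits eEF2, read 37.0, 28.8 and 38.5 CPM with siNT and 60.4, 48.1 and 56.7 CPM with siUPF1, without overlap, and rose by 0.67 (SE 0.26, adjusted p = 0.0486). That call was lost without any 1 of 5 of the 6 CLIP libraries, the exception being siUPF1 replicate 2 (adjusted p between 0.0641 and 0.185). EEF2KMT, which encodes an eEF2 methyltransferase, was between -0.16 and 0.15 over the lines.

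**Figure D3:**
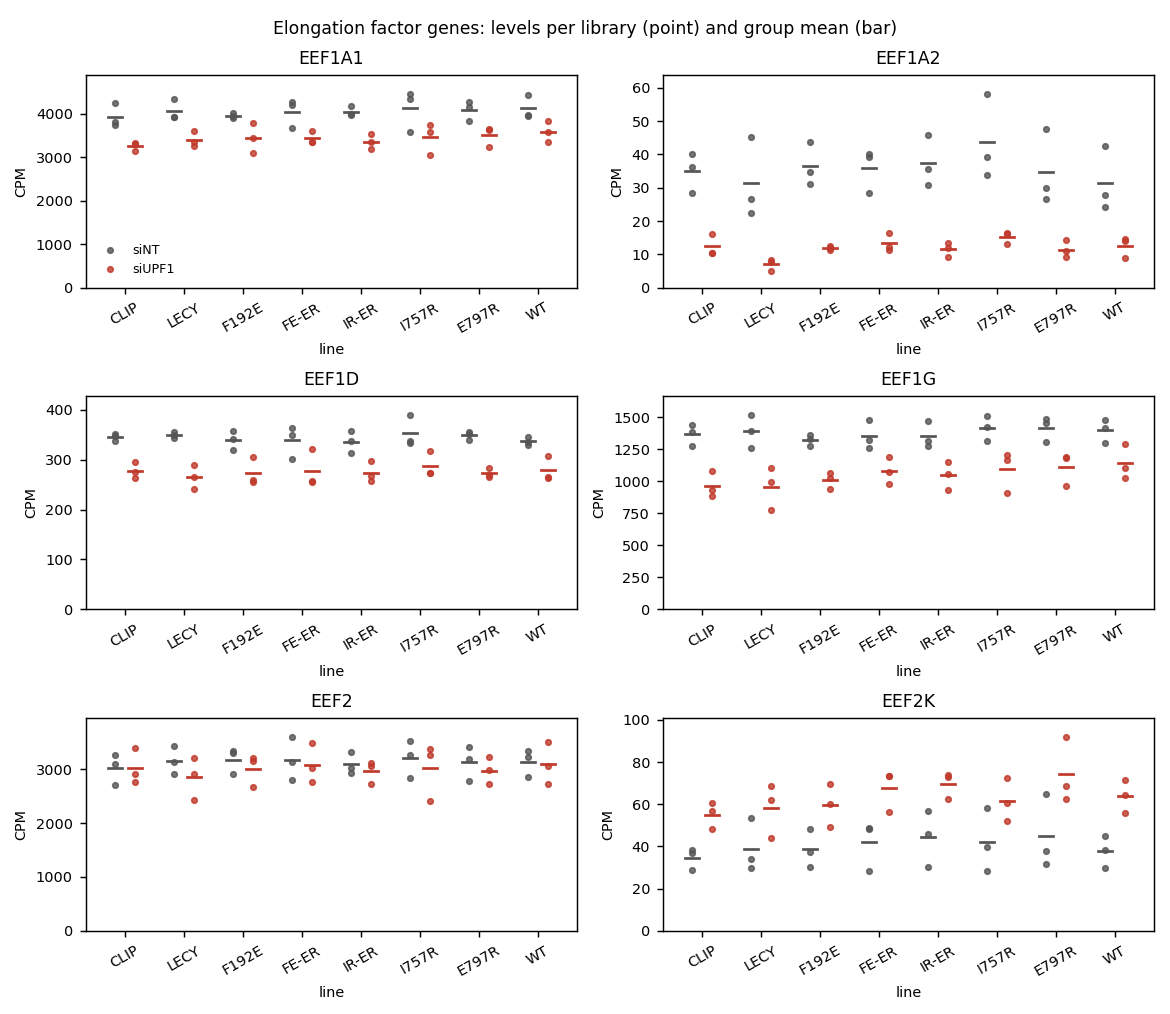
Levels in CPM (y axis, from 0) of 6 elongation genes in each library (points) with group means (bars), by line (x axis), grey for siNT and red for siUPF1. EEF1A2 is lower with siUPF1 in every line, EEF2K has a higher mean with siUPF1 in every line, and EEF2 overlaps throughout.

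EEF1A2 fell in each of the 8 lines, by 1.32 (WT) to 2.12 (LECY). Over all lines it read 22.3 to 58.1 CPM in the 24 siNT libraries (median 35.1) and 5.12 to 16.5 CPM in the 24 siUPF1 libraries (median 11.9), so the ranges did not meet. With siUPF1 the WT line was 0.03 above CLIP on the log2 scale, with a 95% interval from -0.55 to 0.61. In LECY with siUPF1 it read 7.81, 5.12 and 8.38 CPM, below all WT libraries (14.0, 8.93 and 14.7 CPM). That difference of -0.80 did not pass (adjusted p = 0.0751, and 0.00368 with the block). EIF3K and EEF1D were the other members that fell in every line, by 0.30 to 0.37 and by 0.28 to 0.40. EIF3K read 172 to 219 CPM with siNT and 131 to 179 CPM with siUPF1, and EEF1D 302 to 389 CPM and 240.4 to 321 CPM, so both ranges overlapped across lines. Leaving out 1 library ended the EIF3K call in 6 of the 8 lines and the EEF1D call in 5 (largest adjusted p 0.207 and 0.145), and no left-out library ended an EEF1A2 call.

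These 3 genes were 5% of the members, beside 3.20% of all genes that fell in every line, and no member rose in every line, beside 3.54% of all genes. With the block, 8 members fell in all 8 lines (EEF1A1, EEF1A2, EEF1D, EEF1G, EIF3E, EIF3H, EIF3K and EIF3L; 13.3%, beside 5.76% of all genes) and 4 rose in all 8 (EIF5, EIF5A2, EIF2D and EEF2K; 6.67%, beside 6.31%). EIF3L passed in 3 lines without the block, EEF1A1 in 5 and EEF2K in 3. The sign of the change was the same in all lines for 40 of 60 members (66.7%), beside 47.0% of all genes, and 31 members (51.7%, beside 52.9%) passed in no line. With the block 17 members (28.3%, beside 34.2%) passed in no line. The lines share a protocol and siRNAs, so agreement across them is a description.

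EIF5 was the member whose response to siUPF1 differed most clearly between lines. With siNT it read 222 to 299 CPM over all 24 libraries, and 305 to 714 CPM with siUPF1, so every library with siUPF1 was above every control library. In WT cells it read 276, 286 and 251 CPM with siNT and 306, 377 and 317 CPM with siUPF1, a change of 0.30 that did not pass (SE 0.11, adjusted p = 0.0714, and 0.00147 with the block). In LECY cells it read 254, 264 and 226 CPM with siNT and 616, 714 and 541 CPM with siUPF1, a change of 1.33 (SE 0.12, adjusted p = 9.17e-12). LECY was thus at the level of the tag line, and WT near its own controls.

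The difference of knockdown effects between WT and CLIP was -1.02 for EIF5 (SE 0.16, adjusted p = 3.88e-05) and that between LECY and WT was 1.03 (SE 0.16, adjusted p = 4.11e-05). No other member passed either test, and in these contrasts 4.0% and 3.31% of all genes were called. Both EIF5 calls held in every alternative that was tried. Between LECY and CLIP the difference was 0.01, with a 95% interval from -0.31 to 0.34. With the block, EIF3A (0.35, adjusted p = 0.0416), EIF4E (0.35, adjusted p = 0.0337) and EIF6 (-0.40, adjusted p = 0.0338) also differed between WT and CLIP, 4 members in all beside 9.55% of all genes. Between LECY and WT the block added EIF3A (-0.44, adjusted p = 0.0102), EEF1A2 (-0.82, adjusted p = 0.0452), EIF1 (0.35, adjusted p = 0.0329) and EIF6 (0.43, adjusted p = 0.0209), 5 members in all beside 8.46%. WT libraries enter both of these differences, so they are not independent.

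**Figure D4:**
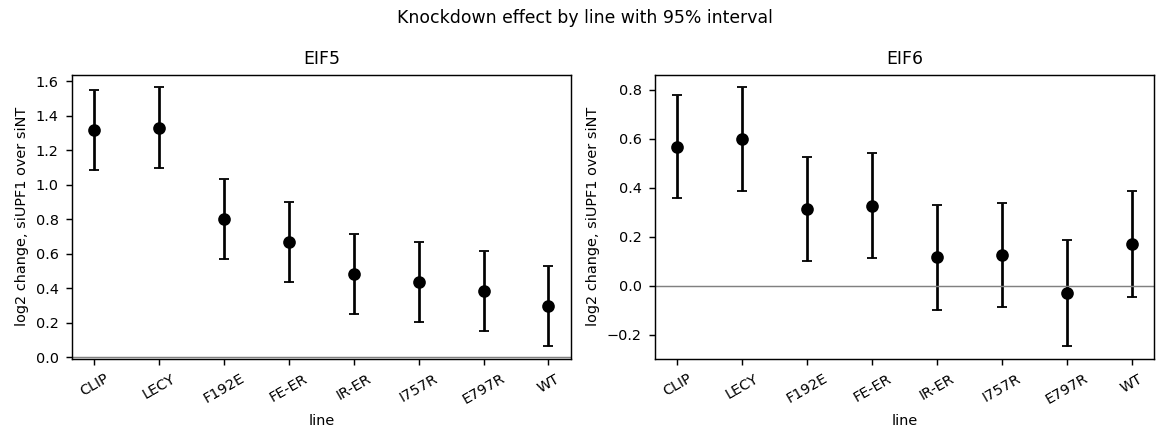
Log2 change of siUPF1 over siNT (y axis) for EIF5 and EIF6 in each line (x axis), with 95% intervals. EIF5 runs from 1.32 in CLIP and 1.33 in LECY down to 0.30 in WT, with F192E at 0.80; EIF6 is highest in LECY (0.60) and CLIP (0.57).

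The 5 other mutants lay between for EIF5. F192E read 240.4, 254 and 222 CPM with siNT and 393, 472 and 383 CPM with siUPF1 (0.80, SE 0.11, adjusted p = 1.19e-06). FE-ER rose by 0.67, IR-ER by 0.49, I757R by 0.44 and E797R by 0.39, with adjusted p-values of 3.42e-05, 0.00208, 0.00621 and 0.0155. The I757R call was lost without I757R siUPF1 replicate 2 (adjusted p = 0.0656), and the E797R call without E797R siUPF1 replicate 2 or siNT replicate 3 (adjusted p between 0.117 and 0.119). The F192E effect exceeded that of WT by 0.50 (SE 0.16), which passed only with the block (adjusted p = 0.455 without it and 0.00412 with it). The differences from WT of FE-ER (0.37), IR-ER (0.19), I757R (0.14) and E797R (0.09) did not pass, and the 95% interval for E797R ran from -0.24 to 0.42.

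Compared directly under siUPF1, 5 members differed between WT and CLIP cells, 3 higher and 2 lower in WT (8.33%, beside 14.0% of all genes, 5.45% higher and 8.60% lower). EIF5 was lower by 0.92 (SE 0.11, adjusted p = 1.01e-07), and so was EIF6, by 0.44 (SE 0.10, adjusted p = 0.00215). EIF6 in WT read 74.1, 66.4 and 59.1 CPM with siUPF1, all below the CLIP values given above. EIF5A2 (0.77, adjusted p = 0.0046), EIF3A (0.40, adjusted p = 0.0119) and EIF2B3 (0.34, adjusted p = 0.0109) were higher in WT. EIF3A read 1538, 1294 and 1147 CPM and EIF2B3 41.1, 38.7 and 42.4 CPM in WT with siUPF1, above all CLIP siUPF1 libraries for both genes. Single libraries decided 3 of these calls: EIF3A was lost without WT siUPF1 replicate 1 or CLIP siUPF1 replicate 3, EIF5A2 without WT siUPF1 replicate 2, and EIF2B3 without CLIP siUPF1 replicates 1 or 3 or WT siUPF1 replicate 3 (adjusted p between 0.0528 and 0.122 over these). Without CLIP siUPF1 replicate 3, 3 members remained. With the block 13 members were higher and 3 lower in WT (26.7%, beside 25.4% of all genes).

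**Figure D5:**
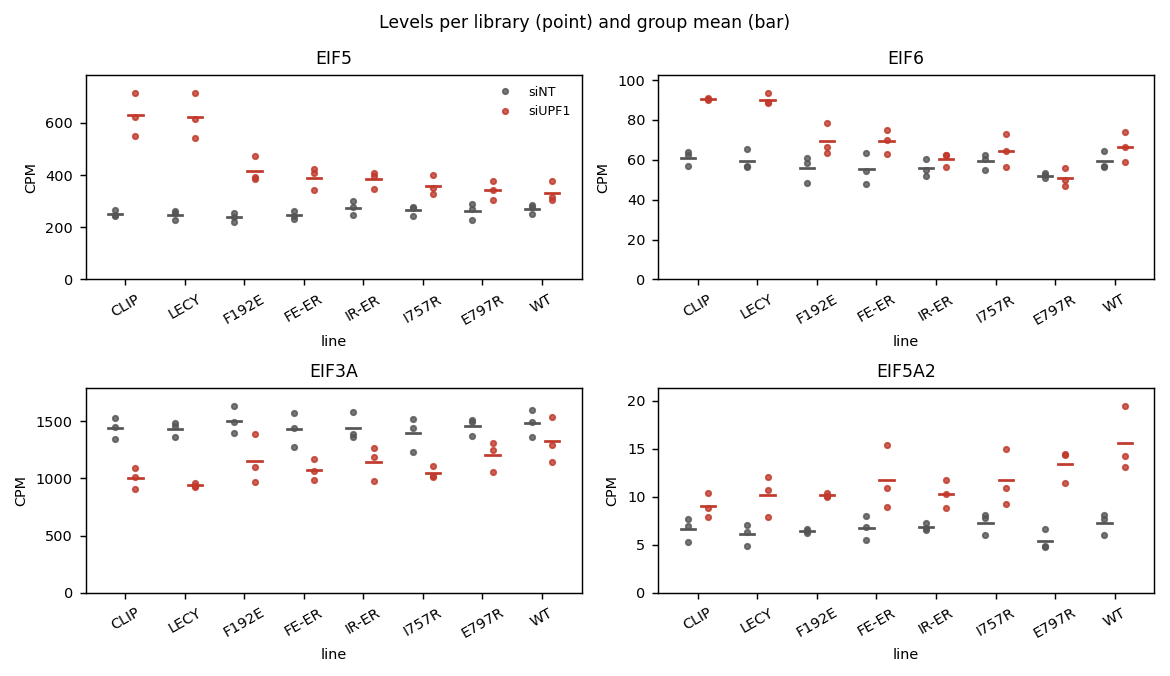
Levels in CPM (y axis, from 0) of EIF5, EIF6, EIF3A and EIF5A2 in each library (points) with group means (bars), by line (x axis), grey for siNT and red for siUPF1. With siUPF1, the means of EIF5 and EIF6 are highest and those of EIF3A lowest in CLIP and LECY, while the highest EIF5A2 library (19.4 CPM) is in WT.

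LECY against WT under siUPF1 gave 7 members (11.7%, beside 13.5% of all genes, 8.17% higher and 5.34% lower), 3 higher and 4 lower. EIF5 (0.90, adjusted p = 1.65e-07), EIF6 (0.44, adjusted p = 0.00276) and EIF1 (0.31, adjusted p = 0.0393) were higher in LECY. EIF6 read 88.3, 88.8 and 93.4 CPM in LECY with siUPF1, above all WT libraries. EIF1, the gatekeeper of start codon choice, read 153, 191 and 172 CPM in LECY and 119, 141 and 156 CPM in WT, and these groups overlapped.

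The 4 lower members were EIF5A2 (-0.62, adjusted p = 0.0278), EIF3A (-0.50, adjusted p = 0.00192), EIF2B3 (-0.30, adjusted p = 0.0294) and EEF1B2 (-0.27, adjusted p = 0.00883). EIF5A2 read 12, 10.7 and 7.85 CPM in LECY with siUPF1, below all WT libraries. EIF3A read 935, 926 and 957 CPM in LECY, and EEF1B2 262, 276 and 272 CPM in LECY and 303, 331 and 342 CPM in WT, without overlap for either gene. The EEF1B2 call was lost without WT siUPF1 replicate 3 (adjusted p = 0.0549), and 3 others also rested on single siUPF1 libraries. EIF1 was lost without WT replicates 1 or 2 or LECY replicates 2 or 3 (adjusted p between 0.0874 and 0.254), EIF2B3 without replicates 1 or 3 of either line (between 0.0702 and 0.198), and EIF5A2 without WT replicate 2 or LECY replicates 2 or 3 (between 0.0505 and 0.21). With the block 4 members were higher and 13 lower in LECY (28.3%, beside 24.4% of all genes). LECY against CLIP gave no member (1 at an unadjusted p under 0.05, 0 with DESeq2, 0 with the block and 1 without the filter on low counts), beside 0.00599% of all genes.

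No member differed from WT under siUPF1 in the other 5 mutants by edgeR or by DESeq2. At an unadjusted p under 0.05 there were 10 members in F192E, 10 in I757R, 7 in IR-ER, 4 in FE-ER and 4 in E797R. Of all genes, 1.83% were called in F192E (1.52% higher, 0.311% lower), 0.425% in FE-ER (0.383% higher, 0.0419% lower), 0.246% in IR-ER (0.174% higher, 0.0719% lower), 0.0779% in I757R (0.0719% higher, 0.00599% lower) and 0.0479% in E797R, all lower. Without WT siUPF1 replicate 1, 1 member was called in FE-ER. With the block 7 members were called in F192E and 3 (EIF2B3, EIF3A and EIF1AX) in FE-ER, beside 6.98% and 2.61% of all genes. It called 1 (EIF3A) in I757R, 4 (EIF3B, EIF4A1, EIF5A2 and EIF1AX) in IR-ER and 1 in E797R. The shares of all genes there were 0.533%, 1.99% and 0.479%. The F192E members were EIF5 (0.32, adjusted p = 0.00273), higher than in WT, and EIF5A2, EIF2B3, EIF3D, EIF4A1, EIF4G1 and EEF2KMT, lower by 0.27 to 0.59. EIF6 was lower in E797R (-0.38, adjusted p = 0.0369), where it read 55.9, 47.1 and 49.7 CPM with siUPF1, below all WT libraries.

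Without UPF1 depletion the transgenes made no difference that could be called. Under siNT 0 of 60 members differed between WT and CLIP or between any mutant and WT, by edgeR, with the block or with DESeq2, and at most 1 member per comparison had an unadjusted p under 0.05. The share of all genes called was 0.0120% for WT against CLIP and 0 to 0.0180% for the mutants. For EIF5 the WT line was 0.10 above CLIP under siNT, with a 95% interval from -0.13 to 0.33.

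By line, siUPF1 raised 4 and lowered 4 members in WT (13.3%, beside 15.4% of all genes, 8.43% up and 6.98% down). In F192E 6 rose and 9 fell (25%, beside 21.9%, 11.8% up and 10.1% down), and in FE-ER 7 rose and 12 fell (31.7%, beside 18.6%, 10.1% up and 8.52% down). In I757R 3 rose and 11 fell (23.3%, beside 15.9%, 8.13% up and 7.79% down), and in IR-ER 5 rose and 10 fell (25%, beside 17%, 9.20% up and 7.80% down). In E797R 4 rose and 7 fell (18.3%, beside 16%, 8.34% up and 7.71% down), and in LECY 6 rose and 15 fell (35%, beside 29.4%, 15.8% up and 13.6% down). Outside WT, where the counts were equal, more members fell than rose, while in each line more of all genes rose than fell. The medians of the members lay between -0.15 (LECY) and -0.07 (E797R), with those of all genes between -0.03 and 0.02 over the 8 lines. The counts in all lines leaned on single libraries. Leaving out 1 library gave 14 to 21 in CLIP, 10 to 15 in F192E and 14 to 17 in LECY. The other lines moved more in proportion. The share of all genes called was not set beside these counts, so they do not set the members apart from other genes. Without any 1 of the 6 FE-ER libraries the FE-ER count was 8 to 12. It was 4 or 5 in WT without WT siNT replicates 1 or 2 or siUPF1 replicates 1 or 3. For I757R it was 7 to 9 without siNT replicates 1 or 2 or any siUPF1 replicate. IR-ER had 7 to 9 without siNT replicate 2 or any siUPF1 replicate. In E797R it was 7 without siNT replicate 1 or siUPF1 replicate 2. With the block the counts were 20 in WT, 26 in F192E, FE-ER and IR-ER, 23 in I757R, 21 in E797R and 33 in LECY. The members called were then 33.3% in WT (beside 26.1% of all genes), 43.3% in F192E (34.6%), FE-ER (31.1%) and IR-ER (28.2%), 38.3% in I757R (28.5%), 35% in E797R (27.4%) and 55% in LECY (41.6%).

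Several genes recurred over lines. EIF2D rose in 7 lines, by 0.33 to 0.42, and in I757R had 0.29 (adjusted p = 0.0663, and 0.0119 with the block). EEF1G fell in 7 lines and had -0.29 in WT (adjusted p = 0.081, and 0.000916 with the block), and EIF3H and EIF3E fell in 7. In WT, EIF3E read 202, 230.1 and 195 CPM with siNT and 159, 199 and 166 CPM with siUPF1, a fall of 0.26 (adjusted p = 0.0336) with overlapping groups, lost without WT siUPF1 replicates 1 or 3 or siNT replicate 2 (between 0.152 and 0.235). EIF3A fell in 6 lines, all but E797R (-0.27, adjusted p = 0.0983) and WT (-0.17, adjusted p = 0.372), and EIF2B3 and EIF2B5 passed in 5 each. Leaving out 1 library ended all 5 calls of EIF2B3 and all 5 of EIF2B5 (largest adjusted p 0.23 and 0.16), which were also lost without the filter on low counts. It ended 5 of 7 calls of EEF1G, EIF3E and EIF3H, 4 of 6 of EIF3A, 3 of 7 of EIF2D and all 5 of EEF1A1 (largest adjusted p 0.286, for EIF3E). EIF6 rose in CLIP, LECY, F192E and FE-ER. Its calls in F192E (0.31) and FE-ER (0.33) were lost without F192E siUPF1 replicate 2 or siNT replicate 3 (adjusted p between 0.187 and 0.192) and without FE-ER siNT replicates 1 or 3 or siUPF1 replicates 2 or 3 (between 0.0645 and 0.192). EEF2K rose in CLIP, WT and E797R without the block, and the WT and E797R calls were each lost without any 1 of 5 of the 6 libraries, the exceptions being siNT replicate 3 of each line (largest adjusted p 0.212 and 0.237). The E797R call was also lost with DESeq2 size factors (adjusted p = 0.0505). Its log2 change was 0.55 to 0.76 in every line, with a siNT level that varied from 28.2 to 65.0 CPM between libraries.

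Some calls in 1 to 3 lines remain, and outside CLIP each of them was lost without any 1 of 2 to 6 of the 6 libraries of its line. EIF3C rose in WT (0.26, adjusted p = 0.042) and F192E (0.24, adjusted p = 0.0419), EIF3B fell in E797R and LECY, EIF3G in LECY, EIF3L in F192E, FE-ER and I757R, and EIF2S3B in FE-ER (-0.58, adjusted p = 0.042). EIF2B2 rose in FE-ER (0.34) and LECY (0.36) besides CLIP, and EIF2AK2 fell in LECY (-0.22, adjusted p = 0.0395). EEF1AKNMT, EIF2AK3-DT and EIF3J-DT passed in no line. EIF3J-DT had 0.45 in CLIP and 0.51 in LECY (adjusted p = 0.00781 and 0.00351 with the block).

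The 9 genes of the 5′ TOP list (EEF1A1, EEF1B2, EEF1D, EEF1G, EEF2, EIF3E, EIF3F, EIF3H and EIF4B) had a median of -0.27 in CLIP, where 5 fell and none rose, beside a median of -0.08 in the other 51 members, of which 6 rose and 8 fell. Of all genes, 18.1% rose and 15.6% fell in CLIP. The median of the 9 listed genes was between -0.27 and -0.20 in each of the 8 lines, and none of them rose in any line. Of the genes whose windows are shown above, EEF1A1 has the longer pyrimidine run and fell in CLIP. EEF1B2, EEF2, EIF3F and EIF4B also have it and did not pass there, and EEF1G, whose run in the RefSeq entry is shorter, fell. Whether the run bears on these changes was not tested. In CLIP a run at or near the start was present in 3 of 6 risers, 4 of 8 matched fallers and 14 of 34 matched members that did not pass. Among the risers, the runs of EIF5 and EIF2B5 end before the first base. The list was chosen with results of these data known, so its counts describe it only.

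Annotated NMD transcripts were found in 28 of the 58 coding members (48.3%), beside 42.7% of 13296 coding genes tested. In CLIP they were present in 5 of 6 risers, all but EIF5, in 6 of 13 fallers and in 17 of 39 coding members that did not pass. Upstream reading frames were present in the principal GENCODE transcript of 23 of 58 members (39.7%), beside 52.1% of 12836 coding genes. In CLIP these were 3 of 6 risers (EIF6 among them), 4 of 13 fallers and 16 of 39 members that did not pass. EIF4E had 15 leader ATGs in its principal transcript, more than EIF5, and did not pass in CLIP. The RefSeq start of EIF4E (window chr4:98929116-98929145, minus strand) lies after all 15, so transcripts from that start hold none of them. A snoRNA gene lay inside 8 of 58 members (13.8%), beside 1.81% of coding genes. EIF5, which hosts SNORA28, rose, EIF3A and EIF1AX fell, and EIF4A1, EEF1B2, EIF4G1, EIF4G2 and EEF2 did not pass in CLIP.

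Of 42 other translation genes (termination, recycling, mTOR signalling, hypusine and diphthamide synthesis, mitochondrial factors), 41 were tested and 12 rose and 7 fell in CLIP, with a median of 0.04 (all genes -0.03; 18.1% of all genes rose and 15.6% fell). The largest rises were DPH2 (1.64, SE 0.19, adjusted p = 5e-09) and PPP1R15A (1.42, SE 0.29, adjusted p = 0.000176), followed by DOHH (0.74, adjusted p = 0.0438). DPH2 helps build diphthamide, the modified histidine of eEF2, and read 18.6, 20.6 and 26.5 CPM with siNT and 64.4, 72.0 and 68.9 CPM with siUPF1, without overlap. PPP1R15A encodes GADD34, which directs phosphatase to eIF2, and DOHH completes hypusine on eIF5A. The largest falls were EIF4EBP2 (-0.85, adjusted p = 1.68e-07), DPH6 (-0.83, adjusted p = 0.00736) and PDCD4 (-0.52, adjusted p = 0.00031). EIF4EBP2 and PDCD4 encode inhibitors of the cap-binding complex. In WT cells 7 of the 41 rose and 2 fell, beside 8.43% and 6.98% of all genes, and PPP1R15A had 0.15 and PDCD4 0.04, neither passing.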

How the data were processed

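RNA-seq was deposited as RSEM expected counts per gene for 48 libraries, estimated counts made by the authors. The submitters' processing notes name cutadapt, STAR, RSEM, DESeq2 and hg38, without versions; which gene annotation was used, and whether counting used strand, is not given in the sources used here. Counts (9.16% of values were not whole) were rounded and fitted with edgeR 4.0.16 (R 4.3.3) using TMM factors, filterByExpr with a minimum count of 10 and the robust quasi-likelihood test, in 1 model of 16 groups. P-values were Benjamini-Hochberg adjusted over 16698 genes and called under 0.05. CPM used TMM-scaled library sizes, and 95% intervals used 32 residual degrees of freedom. The 3 replicates were called biological in the series' design text, and no 2 replicates agreed within sampling noise.

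The members and lists were chosen with earlier results of these data known. Values in every library were given for the 2 largest calls per role group in CLIP, for members called between lines and for EEF1A1 and EEF2, and the 3 largest rises and falls of the other translation genes were named. The labels give only replicate numbers. Same-numbered deviations correlated at 0.115 to 0.469 in all 24 pairs within lines, so the numbers were also fitted as a block. The block gives each replicate number a single shift shared by all 48 libraries, so it is not a pairing within each line. Alternatives were a replicate block, DESeq2 1.42.0, its size factors in edgeR, no filter on low counts and leaving out each library. On simulated CLIP data over 16698 genes, the test recovered 77% of 100 genes changed by 1 on the log2 scale and 49% of those changed by 0.585. It made 7 false calls. The simulation assumed a spread and left all other genes unchanged, whereas 33.7% of genes were called in the real CLIP contrast. Its recovery therefore does not give the power in these data. Opposite-strand genes overlap 41 of the 60 members and 13 of the 19 called in CLIP (all but EEF1A2, EEF1G, EIF2S3, EIF3K, EIF5 and EIF6), and reads of such pairs cannot be told apart without strand. Genes below the mean count and antisense names were left out.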

Additional observations from a re-analysis of the deposited data

Results flagged for a closer look

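The effect of siUPF1 on EIF5 differed between lines by the test of the difference itself. It was smaller in WT than in CLIP cells by -1.02 on the log2 scale (SE 0.16, edgeR adjusted p = 3.88e-05), and larger in LECY than in WT cells by 1.03 (SE 0.16, edgeR adjusted p = 4.11e-05). All 3 libraries with siUPF1 were above all 3 with siNT in each of these lines. Both differences share the WT libraries.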

How the results depend on the processing

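Of 136 called gene results, 44 kept their call in every alternative and 92 lost it in at least 1. Among 1372 alternative values 1039 kept direction and call, 333 lost the call and 0 changed sign. With the replicate block the counts of members called were 31 in CLIP, 20 in WT, 26 in F192E and 26 in FE-ER. They were 23 in I757R, 26 in IR-ER, 21 in E797R and 33 in LECY. Under siUPF1 the block gave 16 for WT against CLIP, 17 for LECY against WT, and, against WT, 7 for F192E, 4 for IR-ER, 3 for FE-ER, 1 for I757R and 1 for E797R. For differences of knockdown effects it gave 4 for WT against CLIP, 5 for LECY against WT and 1 for F192E against WT. Between lines, same-numbered deviations correlated at -0.099 (IR-ER against WT under siNT) to 0.493. Under siUPF1 they correlated at 0.0868, 0.276 and 0.258 in FE-ER against WT. For LECY against CLIP the values were 0.0521, 0.265 and 0.167. Pairing between lines was thus weak in some replicates, although the block assumes a shift that all lines share. Without a filter on low counts the counts were 13 in CLIP and FE-ER and 10 in F192E and E797R. They were 3 in WT, 9 in I757R, 6 in IR-ER, 12 in LECY and 1 for LECY against CLIP under siUPF1. Leaving out 1 library gave 14 to 21 in CLIP, 4 to 8 in WT, 10 to 15 in F192E, 8 to 12 in FE-ER, 7 to 11 in I757R, 7 to 10 in IR-ER, 7 to 10 in E797R, 14 to 17 in LECY, 3 to 7 for WT against CLIP, 5 to 7 for LECY against WT and 0 to 1 for FE-ER against WT under siUPF1. The shares of all genes called without 1 library or without the filter were not set beside these counts. The counts therefore do not set the members apart from other genes. The cause of these shifts was not tested. Replicates differed by more than counting error (chi-square per degree of freedom 3.59 to 16.5 over 48 pairs), and the effect of depth was not tested. A member that did not pass is not shown to be unchanged.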
